A study of Mus musculus with 6 samples.

Results

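The Bcl2 family of apoptosis regulators was followed by 10 genes, chosen by gene name from the 28752 genes of the table: Bax and Bak1, Bcl2, Bcl2l1 and Mcl1, and Bbc3, Pmaip1, Bid, Bcl2l11 and Bad. The samples were mouse intestinal crypt stem cells by their labels. The general methods of the study describe Lgr5+ cells taken from Lgr5-GFP reporter mice by fluorescence-activated sorting and grown as organoids in IntestiCult medium. Such a gate would remove leukocytes, yet leukocyte markers were measurable in these samples, as given below. One group carried the vector (genotype label WT, n = 3) and the other overexpressed circEZH2_005, a circular RNA of the Ezh2 gene delivered by adenovirus (n = 3). Both groups had been infected for 72 h and then put through hypoxia/reoxygenation (H/R), with 4 h at 2% O2 in the hypoxic step, so there was no group without H/R and every difference below is between infected cells under H/R. The study's methods describe male C57BL/6 mice of young adult age and do not give the age or number of the Lgr5-GFP mice. The p-values measure the spread between these samples, which may be technical.

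The BCL2 family sets whether a cell opens the outer membrane of its mitochondria and dies by apoptosis. BAX and BAK1 are the effectors that form the pores, BCL2, BCL2L1 (BCL-XL) and MCL1 hold the effectors back, and the BH3-only proteins relay stress signals by binding the guardians or the effectors. In the intestinal crypt, BBC3 (PUMA) and PMAIP1 (NOXA) are known as p53 targets in the response of stem cells to damage.

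Of the family, Pmaip1 rose with circEZH2_005, with 1.74-fold the vector level and an adjusted p-value of 0.0202 over all genes. It was the 1 of 10 genes called higher, and 0 were called lower; in the background, 2.69% of the 18348 genes tested were called higher and 0.986% lower. All 10 genes passed the filter on low counts. Bak1 and Mcl1 lay higher in each circEZH2_005 sample than in any vector sample, at 1.31 and 1.24 times the vector level, with adjusted p-values of 0.0685 and 0.0801. Bax lay lower in each circEZH2_005 sample, at 0.911 times the vector level with an adjusted p-value of 0.406. The other 6 genes overlapped between the groups. The median log2 fold change of the 10 genes was 0.17, beside 0.00 over all genes tested.

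The cells expressed the family at very unequal levels, compared per transcript length as FPKM (fragments per kilobase of transcript, scaled to library size). In the vector group Bak1 stood first at 73.9 ± 4.98 FPKM and Mcl1 second at 48.5 ± 1.29 FPKM (SD, n = 3). The other effector, Bax, had 16.7 ± 0.840 FPKM. By the mean over all 6 samples, Bak1 was at the 97.0 percentile of all genes tested and Mcl1 at the 95.1 percentile, so the most abundant effector and the most abundant guardian were both among the highly expressed genes. Bad (11.5 FPKM), Pmaip1 (8.20 FPKM), Bcl2l1 (7.16 FPKM) and Bid (3.18 FPKM) followed without overlap between neighbours in the order. Bcl2l11, Bbc3 and Bcl2 ended the order with means of 0.847 to 1.10 FPKM, and neighbours among these last genes overlapped. With circEZH2_005 the first 3 places were the same, at 90.9 ± 4.89 FPKM for Bak1, 56.5 ± 3.37 FPKM for Mcl1 and 14.3 ± 1.55 FPKM for Bax. Pmaip1 moved past Bad to 13.4 ± 1.36 FPKM, where its samples overlapped those of Bax.

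**Figure D1:**
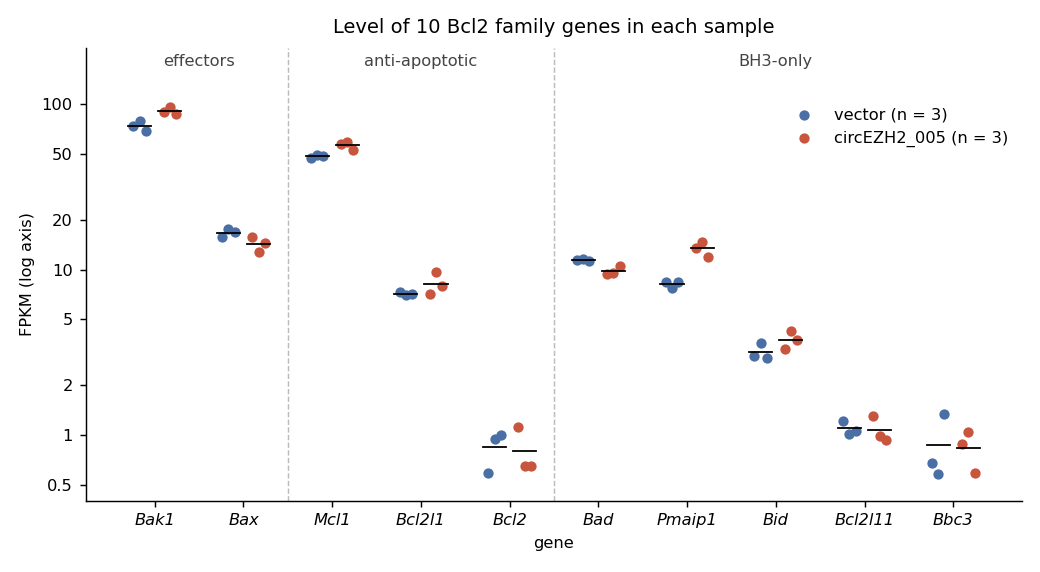
Level of each Bcl2 family gene in every sample, in FPKM on a log axis, with vector samples in blue, circEZH2_005 samples in red, a bar at each group mean and the genes grouped by role. Bak1 and Mcl1 sit highest at 47.1 to 96.3 FPKM, and Bcl2, Bbc3 and Bcl2l11 lowest at 0.584 to 1.34 FPKM.

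The promoters of the effectors Bak1 and Bax, which lay on opposite sides of the vector samples without passing the test, and of Mcl1, which lay on the side of Bak1, are shown so that their letters can be set side by side. Each is a window of 300 bases around the RefSeq transcription start, read 5′ to 3′ on the strand of the gene in GRCm38.p6. Bak1 is at chr17:27028578-27028877 on the minus strand, Bax at chr7:45466849-45467148 on the minus strand and Mcl1 at chr3:95658471-95658770 on the plus strand. Capitals mark matches to a motif on either strand.
Bak1: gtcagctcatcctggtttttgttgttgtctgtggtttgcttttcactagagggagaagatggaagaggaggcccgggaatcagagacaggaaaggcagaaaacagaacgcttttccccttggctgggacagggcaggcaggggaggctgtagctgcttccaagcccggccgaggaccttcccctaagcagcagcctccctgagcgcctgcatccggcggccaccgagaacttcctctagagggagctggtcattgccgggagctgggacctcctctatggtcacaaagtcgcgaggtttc
Bax: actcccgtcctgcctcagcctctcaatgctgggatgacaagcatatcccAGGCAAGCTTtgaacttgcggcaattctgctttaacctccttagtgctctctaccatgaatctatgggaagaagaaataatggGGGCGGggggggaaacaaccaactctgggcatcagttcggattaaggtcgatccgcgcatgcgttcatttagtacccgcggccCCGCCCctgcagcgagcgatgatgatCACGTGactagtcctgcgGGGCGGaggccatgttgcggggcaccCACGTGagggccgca
Mcl1: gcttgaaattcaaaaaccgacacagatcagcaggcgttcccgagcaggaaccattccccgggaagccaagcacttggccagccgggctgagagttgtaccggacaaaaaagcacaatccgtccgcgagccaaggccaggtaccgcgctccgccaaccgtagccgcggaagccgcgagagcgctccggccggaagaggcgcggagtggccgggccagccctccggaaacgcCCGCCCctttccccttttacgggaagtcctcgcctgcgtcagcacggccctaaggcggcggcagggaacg
The 8 motifs searched were AP-1 (TGACTCA), CRE (TGACGTCA), STAT (TTCNNNGAA), the interferon-stimulated element (GAAANNGAA), the E-box (CACGTG), the hypoxia response core (ACGTG), the GC box (GGGCGG) and the p53 decamer. The Bak1 window held none of the 8, as did 36.4% of the 32851 mouse promoter windows of this length. The Mcl1 window held 1 GC box, read on the other strand from base -20 relative to the start, and a GC box was in 35.7% of all windows. The Bax window held E-boxes at -9 and 36, GC boxes at -118, -35 and 10, and a p53 decamer at -201. E-boxes were in 7.15% of all windows and the p53 decamer in 8.36%. The hypoxia response core, in 19.6% of all windows, lay in the Bax window only inside its E-boxes, since the letters overlap. AP-1, CRE, STAT and the interferon-stimulated element were in 5.20%, 1.79%, 8.30% and 8.56% of all windows and in none of these 3. A match is a description of letters and not of binding. Of the 10 genes, 9 matched an entry in the RefSeq promoter set used, and Pmaip1, the gene called higher, did not.

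The effectors Bak1 and Bax lay on opposite sides of the vector samples, and neither passed the edgeR test. Bak1 (ENSMUSG00000057789; mm10 chromosome 17, 27019810 to 27029009) had 195, 203 and 179 normalised counts (CPM, scaled to library size) in vector samples 1 to 3 and 231, 278 and 247 CPM in circEZH2_005 samples 1 to 3. The groups did not overlap, with circEZH2_005 sample 2 highest and vector sample 3 lowest. The log2 fold change of Bak1 was 0.39 (SE 0.10, 95% confidence interval 0.16 to 0.62). The adjusted p-value of 0.0685 did not pass the threshold of 0.05 with edgeR, and with DESeq2 it was 0.0117. In the annotation Bak1 overlaps Ggnbp1 on the other strand, and the counting was not stated to use strand, so reads of the shared stretch cannot be told apart.

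Bax (ENSMUSG00000003873; chromosome 7, 45461697 to 45466898) had 27.4, 29.4 and 28.6 CPM in the vector samples. In the circEZH2_005 samples it had 26.7, 24.0 and 27.0 CPM. The highest circEZH2_005 sample lay just under the lowest vector sample, and the log2 fold change of -0.14 (SE 0.09, 95% confidence interval -0.34 to 0.07) included 0. Over all genes tested, 16.4% lay wholly higher in the circEZH2_005 samples and 14.2% wholly lower, beside 3 and 1 of these 10 genes. The ratio of Bak1 to Bax in FPKM, looked at after the values were seen, was 4.66, 4.52 and 4.11 in the vector samples. It was 5.66, 7.59 and 5.99 with circEZH2_005, which placed all 3 of these samples above the vector samples.

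Among the guardians, Mcl1 differed most between the groups relative to its spread. Mcl1 (ENSMUSG00000038612; chromosome 3, 95658788 to 95663176), a short-lived guardian that also binds NOXA, had 177, 181 and 181 CPM in the vector samples. In the circEZH2_005 samples it had 212, 242 and 212 CPM. The vector samples were close together, and each circEZH2_005 sample lay above them. The log2 fold change of Mcl1 was 0.31 (SE 0.08, 95% confidence interval 0.11 to 0.50), with an adjusted p-value of 0.0801 with edgeR and 0.0296 with DESeq2.

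Bcl2l1 (ENSMUSG00000007659; chromosome 2, 152780668 to 152831728), which encodes BCL-XL, had 37.1, 34.6 and 35.1 CPM in the vector samples. With circEZH2_005 it had 35.1, 52.9 and 43.1 CPM. Samples 2 and 3 of circEZH2_005 were above the vector samples, whereas sample 1 lay among them. The log2 fold change was 0.30 (SE 0.14, 95% confidence interval -0.04 to 0.63) and the adjusted p-value was 0.263.

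Bcl2 itself (ENSMUSG00000057329; chromosome 1, 106538178 to 106714274), the founding guardian of the family, had the lowest mean FPKM in both groups, overlapping with Bbc3. It had 5.94, 9.29 and 9.93 CPM in the vector samples and 11.0, 7.11 and 7.01 CPM with circEZH2_005. The groups overlapped over most of their range, and the log2 fold change was -0.0011 (SE 0.26, 95% confidence interval -0.60 to 0.60). The interval spans a range of 0.659 to 1.52 in fold, so a moderate change in either direction was not detectable in these samples. Bcl2 overlaps the predicted gene Gm37053 on the same strand in the annotation. The ratio of Bax to Bcl2, a common index of apoptotic priming, was 26.8, 18.4 and 16.8 in FPKM in the vector samples. It was 14.1, 19.6 and 22.5 with circEZH2_005, and the groups overlapped. Bax to Bcl2l1 was 2.15, 2.48 and 2.37 in the vector samples against 2.21, 1.32 and 1.82, with sample 1 of circEZH2_005 inside the vector range. Bak1 to Mcl1, the most abundant effector over the most abundant guardian, ran from 1.41 to 1.60 in the vector samples and from 1.54 to 1.65 with circEZH2_005, again with overlap.

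**Figure D2:**
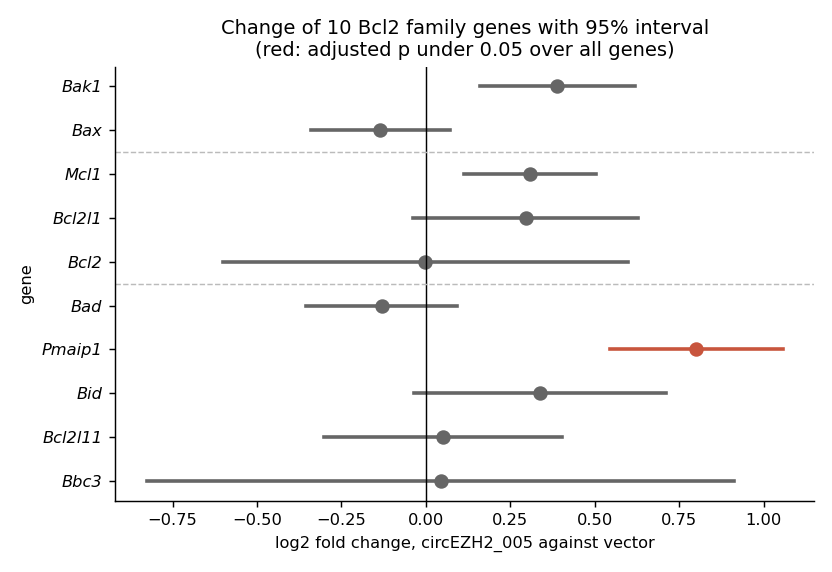
Log2 fold change of each Bcl2 family gene, circEZH2_005 against vector, with bars for the 95% confidence interval of the edgeR fit (n = 3 per group). Pmaip1 is farthest from 0 at 0.80, Bak1 and Mcl1 also lie to the right with intervals above 0, and the interval of Bbc3 is the widest.

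The BH3-only genes held the 1 change that passed the test. Pmaip1 (ENSMUSG00000024521; chromosome 18, 66458533 to 66465565) encodes NOXA, which binds MCL1 and promotes its breakdown. It had 1830, 1677 and 1955 counts in the vector samples and 3166, 3583 and 2771 with circEZH2_005. In normalised counts these were 25.3, 22.4 and 25.0 CPM against 39.8, 48.2 and 38.7 CPM. The groups were far apart: the lowest circEZH2_005 sample was well above the highest vector sample. The log2 fold change of Pmaip1 was 0.80 (SE 0.11, 95% confidence interval 0.55 to 1.06), a fold of 1.74 (1.46 to 2.08). The call was lost in 3 of the 6 fits that left out 1 sample. Without vector sample 1 the adjusted p-value was 0.0965 (log2 fold change 0.83), without vector sample 3 it was 0.103 (0.82), and without circEZH2_005 sample 2 it was 0.0599 (0.69). The other 3 omissions kept the call. By the other filter, a fold change over 2 or under 0.5 with an unadjusted p-value under 0.05, 0 of the 10 genes and 7.56% of all genes were called, since no fold in the family reached 2.

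NOXA and its partner MCL1 can be set side by side through the ratio of Pmaip1 to Mcl1 in FPKM, also looked at after the values were seen and not tested. It was 0.179, 0.155 and 0.173 in the vector samples. With circEZH2_005 it was 0.235, 0.249 and 0.228, above every vector sample. Over the 6 samples the log2 CPM of Pmaip1 and Mcl1 had a Pearson correlation of 0.973, Bak1 and Mcl1 of 0.956, and Bak1 and Pmaip1 of 0.919. Bax had negative values, -0.890 with Pmaip1 and -0.884 with Mcl1. These points share the group difference and the same 6 libraries. Among the 10678 genes with a mean of at least 5 CPM, those most like Pmaip1 over the 6 samples were Fbxo6 (0.998), Pkp3 (0.997) and Mir22hg (0.996), and 299 genes (2.80%) exceeded 0.95.

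**Figure D3:**
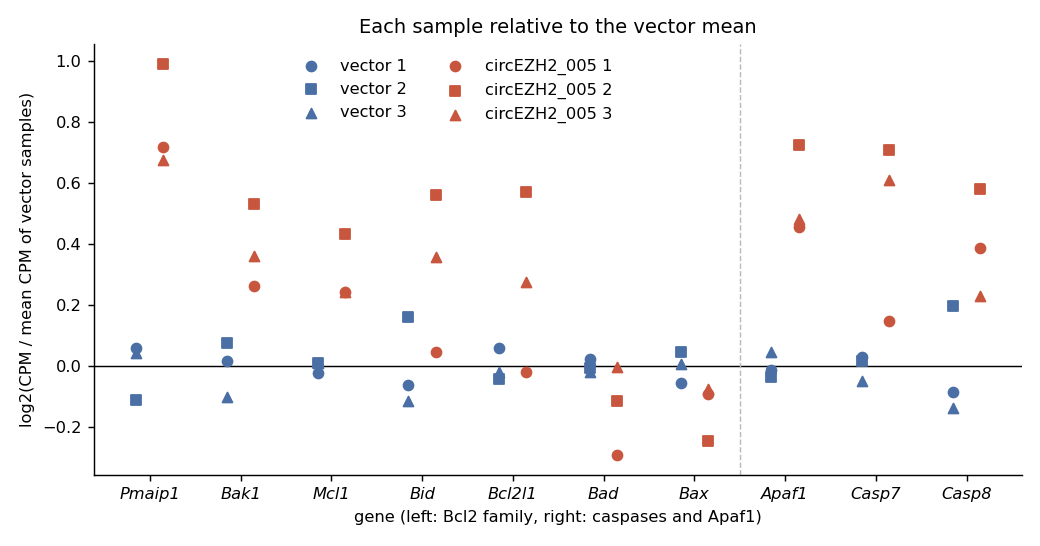
Log2 ratio of the CPM in each sample to the vector mean of the gene, with 1 point per sample, for 7 Bcl2 family genes on the left and, on the right, Apaf1 and 2 caspases drawn after their values were seen. Pmaip1, Bak1 and Mcl1 have all 3 circEZH2_005 points above the vector points, Bax has them below, Bid, Bcl2l1 and Bad overlap, and circEZH2_005 sample 2 is the highest point of Pmaip1, Bak1, Mcl1, Bid and Bcl2l1.

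Bid (ENSMUSG00000004446; chromosome 6, 120891930 to 120916853), which links death receptors to the mitochondria once it is cleaved by caspase-8, had 11.7, 13.6 and 11.3 CPM in the vector samples. With circEZH2_005 it had 12.6, 18.0 and 15.6 CPM. Samples 2 and 3 of circEZH2_005 were the highest, and sample 1 fell within the vector range. The log2 fold change was 0.34 (SE 0.16, 95% confidence interval -0.03 to 0.71) with an adjusted p-value of 0.253.

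Bad (ENSMUSG00000024959; chromosome 19, 6941861 to 6951899), which is held inactive by survival kinases, had 32.3, 31.6 and 31.3 CPM in the vector samples and 25.9, 29.4 and 31.7 CPM with circEZH2_005. The vector samples were nearly equal, samples 1 and 2 of circEZH2_005 were below them, and sample 3 was among them. Its log2 fold change was -0.13 (SE 0.10, 95% confidence interval -0.35 to 0.09), with an adjusted p-value of 0.466. In the annotation Bid overlaps Bcl2l13 and Gm17812 on the other strand and Gm44260 on its own, and Bad overlaps Gpr137 on the other strand.

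Bcl2l11 (ENSMUSG00000027381; chromosome 2, 128126038 to 128162547) encodes BIM, a potent activator of the effectors. It had 10.7, 8.74 and 9.24 CPM in the vector samples and 11.3, 9.57 and 8.86 CPM with circEZH2_005. The groups overlapped, and the log2 fold change was 0.05 (SE 0.15, adjusted p-value 0.881). Its sign changed with library size alone and with limma, which moved the median of all genes by -0.062 to -0.094. The sign also changed without vector sample 2 (-0.010) and without circEZH2_005 sample 1 (-0.056), where the median of all genes was 0.0012 and -0.0093.

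Bbc3 (ENSMUSG00000002083; chromosome 7, 16308393 to 16318205), the gene of the p53 target PUMA, had 116, 100 and 240 counts in the vector samples and 160, 199 and 108 with circEZH2_005. Vector sample 3 was the highest of all and the other vector samples were among the lowest. The log2 fold change was 0.04 (SE 0.37, 95% confidence interval -0.83 to 0.91). It changed sign under other scalings and fits that moved the median of all genes by -0.043 to -0.074. Its sign also changed without vector sample 1, vector sample 2 or circEZH2_005 sample 2. The width of the interval means that a difference of the size of Pmaip1 was not detectable for Bbc3 in these samples.

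By DESeq2, 3 of the 10 genes were called higher (Pmaip1, Bak1 and Mcl1) and 0 lower. Over the 28719 genes with a DESeq2 p-value, 5.53% were called higher and 2.44% lower. That set had no filter on low counts, unlike the 18348 genes of edgeR, so its shares are over a different set. By limma on log2(FPKM + 1) 1 was called higher and 0 lower, beside 2.79% and 2.74% of the 13278 genes it tested. At an unadjusted p-value under 0.05, edgeR had 3 of the 10 genes higher and 0 lower, beside 14% and 9.72% of all genes. Limma had 3 higher and 1 lower at that level, beside 11.5% and 17.7%.

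Beyond the 10 genes, 5 further lists of apoptosis genes were read in the same fit. The remaining Bcl2 family had 13 of 16 genes tested, with a median log2 fold change of 0.01, and edgeR called 0. At an unadjusted p-value under 0.05 edgeR had 3 higher and 1 lower, beside 14% and 9.72% of all genes. DESeq2 called 3 higher after adjustment, beside 5.53%. The gene with the smallest p-value was Bnip3, a hypoxia-induced BH3-like gene, at 4.70, 3.84 and 5.30 CPM in the vector samples against 5.52, 8.32 and 11.4 CPM. Each circEZH2_005 sample was above the vector samples; the log2 fold change was 0.86 and the adjusted p-value 0.111. Bcl2a1b and Bcl2a1d, guardians of leukocytes picked out after their values were seen, had log2 fold changes of 1.66 and 1.57 with adjusted p-values of 0.131 and 0.169. They are near-identical copies, so the split of reads between them is uncertain.

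Downstream of the mitochondria, 1 of the 14 genes read from the apoptosome and caspase list rose and 0 fell, with a list median of -0.05. Apaf1, the scaffold of the apoptosome, had 106, 105 and 111 CPM in the vector samples and 147, 177 and 150 CPM with circEZH2_005. All circEZH2_005 samples exceeded the tightly grouped vector samples, with a fold of 1.47 (95% confidence interval 1.26 to 1.72; adjusted p-value 0.0301). The call was lost without vector sample 1 (adjusted p-value 0.138), vector sample 3 (0.129), circEZH2_005 sample 2 (0.0752) or sample 3 (0.0645), and the log2 fold change stayed between 0.47 and 0.61 over the 6 omissions. Unadjusted p-values under 0.05 in edgeR numbered 4 higher and 2 lower in the list, beside 14% and 9.72% of all genes. DESeq2 called 3 of the list higher and 0 lower after adjustment, beside 5.53% and 2.44%. Limma called 1 higher and 1 lower, beside 2.79% and 2.74%.

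The inhibitors of apoptosis proteins, which block caspases, had 0 of 9 genes called by edgeR, by DESeq2 or by limma, and 0 at an unadjusted p-value under 0.05 by any of these tools. Their median log2 fold change was 0.07, and the smallest p-value was that of Birc2 at a log2 fold change of 0.10 (adjusted p-value 0.540). Birc2 had 45.1, 47.4 and 46.5 CPM in the vector samples and 51.5, 53.2 and 44.6 CPM with circEZH2_005, with sample 3 below the vector samples.

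**Figure D4:**
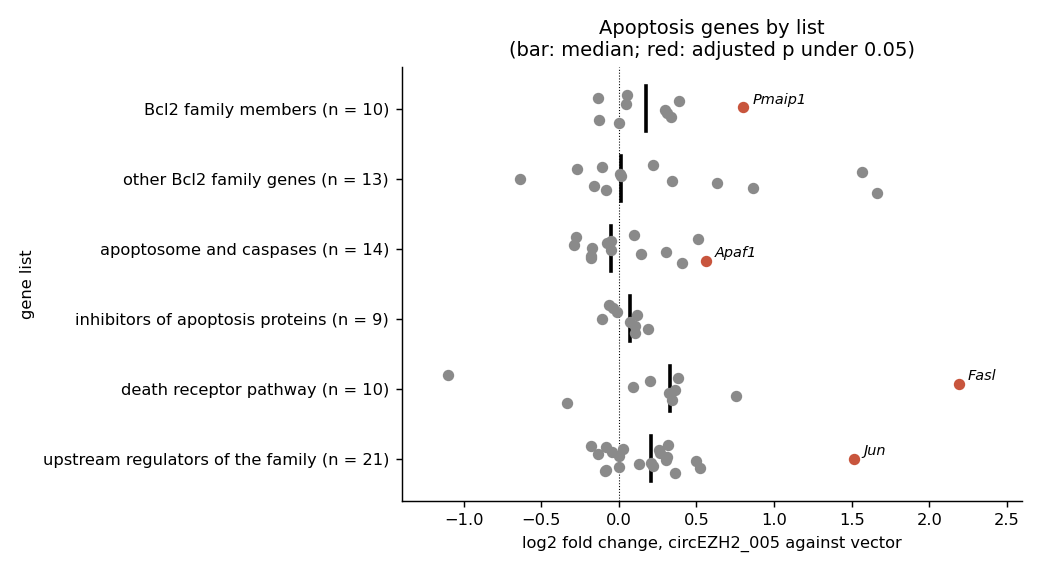
Log2 fold change of every tested gene in the apoptosis lists, circEZH2_005 against vector, with a bar at each list median and red points for an adjusted p-value under 0.05 (edgeR). The red points are Pmaip1, Apaf1, Fasl and Jun, and none lies to the left of 0.

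In the death receptor pathway, 1 of 10 genes rose, 0 fell, and the median was 0.33. Fasl, the ligand of the Fas receptor made mainly by T and natural killer cells, had 0.801, 2.26 and 1.15 CPM in the vector samples and 6.98, 6.91 and 5.37 CPM with circEZH2_005. The groups were far apart at a low level, with a log2 fold change of 2.19 (SE 0.38, adjusted p-value 0.0313). The call held without vector sample 2, and was lost without vector sample 1 (adjusted p-value 0.106), vector sample 3 (0.138), and circEZH2_005 sample 1 (0.0516), sample 2 (0.119) or sample 3 (0.0634). Unadjusted p-values under 0.05 in edgeR numbered 5 higher and 1 lower in the list, beside 14% and 9.72% of all genes. DESeq2 called 3 of the list higher and 1 lower after adjustment, beside 5.53% and 2.44%.

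Of the upstream regulators of the family, 21 of 22 were tested, 1 rose and 0 fell, with a median of 0.21. At an unadjusted p-value under 0.05 edgeR had 9 higher and 0 lower, beside 14% and 9.72% of all genes. Limma had 2 higher and 0 lower at that level, beside 11.5% and 17.7%. DESeq2 called 3 higher and 0 lower after adjustment, beside 5.53% and 2.44%. Jun, the AP-1 subunit that follows stress kinase signalling, had 19.6, 25.9 and 22.6 CPM in the vector samples and 64.5, 66.6 and 63.5 CPM with circEZH2_005. Each circEZH2_005 sample was far above the vector samples, at a log2 fold change of 1.52 (SE 0.11, adjusted p-value 0.0025), and the call held in all 6 omissions. Trp53, the p53 gene upstream of Pmaip1, Bbc3 and Bax, had a log2 fold change of -0.13 (adjusted p-value 0.469). Mdm2, a p53 target and its inhibitor, had 0.26 (adjusted p-value 0.0971). Both were read after their values were seen.

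Leukocyte markers were measurable in these samples, although the sorting gate described in the study's methods would remove leukocytes. The summed level of 15 leukocyte markers was 75.7, 215 and 99.9 CPM in the vector samples and 508, 389 and 284 CPM with circEZH2_005. All 15 had a positive log2 fold change (median 1.303), and none was at 0 in all samples. EdgeR called 0 of them, with 8 higher at an unadjusted p-value under 0.05, beside 14% of all genes. DESeq2 called 6 higher, beside 5.53%, and limma 1 higher of the 12 it tested, beside 2.79%. Ptprc, the pan-leukocyte gene CD45, went from 22.8, 78.6 and 31.9 CPM to 185, 140 and 103 CPM. In bulk RNA, more cells of a type and more RNA per cell cannot be told apart. The part of leukocytes in the levels of Pmaip1, Fasl and the Bcl2a1 copies was not tested.

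Markers of the labelled stem cells were expressed in both groups. Lgr5 had 16.1, 12.1 and 18.3 CPM in the vector samples and 8.55, 9.10 and 7.70 CPM with circEZH2_005. The summed level of 6 stem cell markers was 2009, 2848 and 2135 CPM in the vector samples and 1812, 1355 and 1984 CPM with circEZH2_005. Olfm4, the most abundant in the sum, overlapped, at 1447, 2314 and 1511 CPM against 1383, 1003 and 1565 CPM. Of the 6 markers, 1 had a positive log2 fold change, Axin2 at 0.31 with overlap between the groups, and the median was -0.63. DESeq2 called 4 lower, beside 2.44% of all its genes, and limma 2 lower, beside 2.74%. Those of limma included Smoc2 but not Lgr5 (limma adjusted p-value 0.0572). By edgeR, Smoc2 and Lgr5 fell, with log2 fold changes of -0.81 (adjusted p-value 0.0203) and -0.88 (adjusted p-value 0.0434). Without vector sample 1, vector sample 3, circEZH2_005 sample 2 or circEZH2_005 sample 3 neither passed (adjusted p-values 0.0976, 0.103, 0.0806 and 0.0520 for Smoc2 and 0.158, 0.166, 0.126 and 0.103 for Lgr5). Lgr5 also missed the threshold without circEZH2_005 sample 1 (0.0714). The 6 epithelial markers summed to 7139 to 7575 CPM in the vector samples and 8647 to 10806 CPM with circEZH2_005, and 1 of them rose: Krt8, a keratin, at a log2 fold change of 0.57 (adjusted p-value 0.0301). Krt8 missed the threshold without vector sample 1 (adjusted p-value 0.143), vector sample 3 (0.154), circEZH2_005 sample 2 (0.0625) or sample 3 (0.0612). The summed enterocyte markers overlapped, at 8674 to 10513 CPM against 7888 to 15677 CPM, and 4 of the 6 had a positive log2 fold change (median 0.60). Of these, Apoa1 (0.86), Lct (1.45) and Fabp2 (0.98) lay above the vector samples in each circEZH2_005 sample, while Sis, the most abundant in the sum, overlapped. EdgeR called 0 of the 6 with 4 at an unadjusted p-value under 0.05, all higher, beside 14% of all genes. DESeq2 called 3 of the enterocyte markers higher, beside 5.53%, and limma 0. The summed Paneth cell markers overlapped, at 3185 to 5537 CPM against 1926 to 3427 CPM, and all 5 had a negative log2 fold change (median -0.60). Mmp7 (-0.92) lay below the vector samples in each circEZH2_005 sample. EdgeR called 0 of the 5, with 1 lower at an unadjusted p-value under 0.05, beside 9.72% of all genes. DESeq2 called 1 lower, beside 2.44%, and limma called 0. By DESeq2 5 were lower at that unadjusted level, where 16.0% of all its genes lay in either direction. Fibroblast and muscle markers overlapped at 8.69 to 10.1 CPM against 4.84 to 13.2 CPM, and edgeR and DESeq2 called 0 of 9 with 0 at an unadjusted p-value under 0.05. The markers other than Smoc2, Lgr5 and Krt8 were picked out after their values were seen, and the part of any of these cells in the family's levels was not tested.

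**Figure D5:**
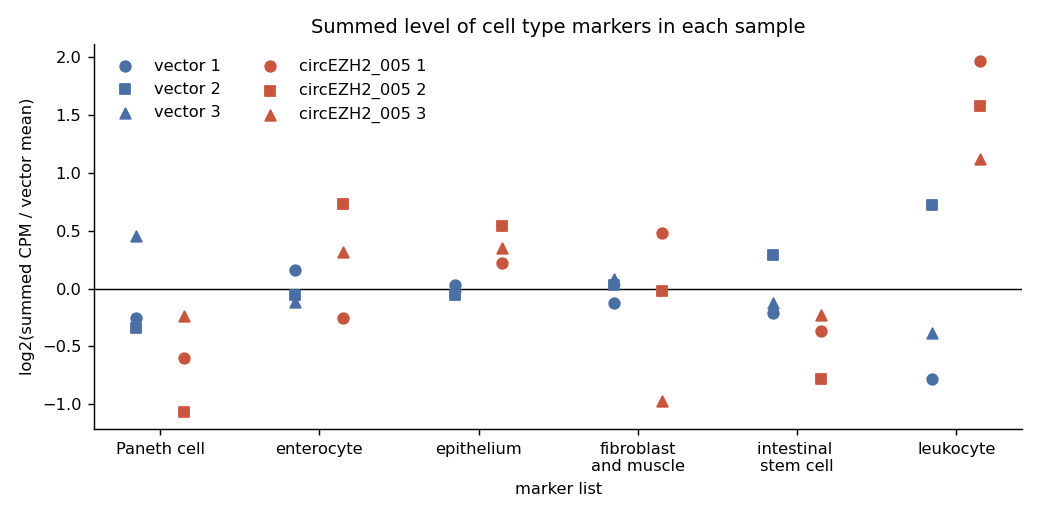
Summed CPM of the marker genes of each cell type in every sample, as a log2 ratio to the vector mean of that sum, with vector and circEZH2_005 samples as separate points. The leukocyte points of circEZH2_005 (284 to 508 CPM) all lie above those of the vector (75.7 to 215 CPM), as do the epithelial points. The stem cell points of circEZH2_005 (1355 to 1984 CPM) lie below those of the vector (2009 to 2848 CPM), narrowly at the nearest.

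The libraries held 71506487 to 79919893 counted reads each, and 3 counts, the limit that a count of 0 allows, correspond to 0.0377 to 0.0419 CPM, well under each family gene. The TMM scaling factors were 0.931 to 1.04. Over all genes, vector sample 2 resembled the circEZH2_005 samples more (correlations of 0.965 to 0.971 in log2 CPM) than vector samples 1 and 3 did (0.951 to 0.964). Ezh2, the host gene, had 5064, 4632 and 5837 counts in the vector samples and 5534, 4383 and 4354 with circEZH2_005 (log2 fold change -0.13, adjusted p-value 0.511). A gene-level count does not separate the circular from the linear RNA, and the libraries were made with oligo(dT), so it does not check the overexpression.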

How the data were processed

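Poly(A) RNA of 6 samples (3 vector, 3 circEZH2_005) was sequenced. For each gene and sample the authors deposited a read count without normalization and an FPKM value. The submitters' processing notes name cutadapt 1.9, HISAT2 2.0.4, StringTie 1.3.4d, DESeq2 and the build mm10; the settings of the counter, its use of strand and the annotation are not given in the sources used here. Identifiers and positions of the 10 genes matched GENCODE M21 (GRCm38). Columns named as negative control were taken for the vector group, the only control.

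Counts were filtered with filterByExpr, scaled with TMM and tested by edgeR 4.0.16 (quasi-likelihood, R 4.3.3), with group as the only term and Benjamini-Hochberg adjustment over 18348 genes. CPM values use the TMM-scaled library size, and differences in level between genes use FPKM. Each standard error was obtained from the log2 fold change and its F statistic. Genes with an adjusted p-value under 0.05 were called. DESeq2 1.42.0 and limma 3.58.1, the latter on log2(FPKM + 1) where the mean reached 0.5 FPKM, were alternatives. The scripts were tested on simulated data. The fold change over 2 with a p-value under 0.05 follows the filter the study states for its circRNA screen. For its mRNA sequencing of crypt cells overexpressing circEZH2_005, the study also gives a fold change over 2, with no p-value threshold beside it.

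All 10 genes are named. Of the other lists, genes called are named (at most 5 a list), otherwise the gene with the smallest p-value, as are the 3 genes most like each called member. The members and the lists were chosen with earlier results of these data known. The floor of 3 counts covers counting error only. Promoter windows came from RefSeq. The result for 1 gene of the lists is not reported here, and the counts leave it out.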

Additional observations from a re-analysis of the deposited data

How the results depend on the processing

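The numbers of genes called by edgeR, 493 higher and 181 lower, were 132 and 37 without a filter, 1588 and 701 by DESeq2, and 323 and 319 by limma on log2(FPKM + 0.1). With limma on log2(FPKM + 1), 364 were called lower and 371 higher, so the split was nearly even on the FPKM scale. The fold filter gave 1142 higher and 246 lower. Leaving out 1 sample gave 26 to 1098 genes called higher and 2 to 334 called lower. The 26 and 2 were without vector sample 1, and the 1098 and 334 without vector sample 2; without vector sample 3 the counts were 31 and 2. Without circEZH2_005 sample 2 they were 62 and 6, and without sample 3 they were 136 and 33. The number of the 10 genes called higher, 1 by edgeR, was 3 by DESeq2, 0 under the fold filter and 0 to 1 over the 6 omissions. Their median log2 fold change, 0.17, was 0.31 where a mean of 1 FPKM was required, where fewer of them were tested.

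Replicate numbers are shared between the groups, and the labels do not say whether same-numbered samples share an animal or a day. After subtracting group means, same-numbered samples correlated at -0.14, -0.02 and 0.04. Vector samples 1 and 2 correlated best with another number, and vector sample 3 with its own. With group means taken out of only 3 samples per group, these correlations cannot decide whether the samples are paired. With a replicate block, 241 genes were called higher and 36 lower and 0 of the 10 genes were called; Pmaip1 kept a log2 fold change of 0.80 with an adjusted p-value of 0.0558.

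Of 148 values of the 10 genes under the alternatives, 127 kept direction and side of the threshold, 4 lost the call (Pmaip1), 2 gained it (Bak1 and Mcl1 with DESeq2) and 15 changed sign. Pmaip1 was called in 11 of 15 alternatives, with log2 fold changes of 0.65 to 0.86. Bbc3 changed sign with upper-quartile factors (-0.0031), library size alone (-0.022) and limma on log2(FPKM + 1) (-0.0063), and ran from -0.19 to 0.49 over the omissions. Bcl2l11 changed sign with library size alone (-0.0050) and with limma (-0.019 on log2(FPKM + 1) and -0.038 on log2(FPKM + 0.1)), and ran from -0.056 to 0.14 over the omissions. Bcl2 ran from -0.25 to 0.13 over them. These scalings and fits also moved the median of all genes, by -0.043 with upper-quartile factors, -0.062 with library size alone, and -0.074 and -0.094 with limma; the cause of the sign changes over the omissions was not tested. The same alternatives were applied, after seeing the data, to 9 genes outside the 10: of 135 values 103 were the same, 31 lost the call, 1 gained it and 0 changed sign. Jun was called in all 15; Apaf1 and Fasl were called in 9 of 15, and without a filter neither was (adjusted p-values 0.0590 and 0.0642). Smoc2 was called in 11 of 15, Krt8 in 9 and Lgr5 in 6.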
